A study of Mus musculus with 10 samples.

Results

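The clustered protocadherins are cell-surface adhesion genes that lie in 3 arrays on mouse chromosome 18. Members were taken by name and biotype: protein-coding genes with symbols beginning Pcdha, Pcdhb, Pcdhga, Pcdhgb or Pcdhgc and a number. This gave 58 of the 78317 listed genes, with 15 in the α cluster, 22 in the β cluster and 21 in the γ cluster. They were measured by poly(A) RNA sequencing of the medial prefrontal cortex, a region of frontal cortex, punched from wild-type mice that had been injected with an adeno-associated virus (AAV). The 5 control libraries, numbered 3, 4, 5, 7 and 9, came from mice given a control AAV. The 5 miR-130a libraries, numbered 13, 14, 15, 17 and 18, came from mice given an AAV that overexpresses the microRNA miR-130a-3p. The promoter and serotype of the AAVs and the age of the mice are not given in the sources used here, and the tissue holds mixed cell types. Of the 58 members, 54 had a mean of at least 1 TPM (a gene's length-normalised share of a library's transcripts) over the 10 libraries and were tested.

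Most clustered protocadherins bind the same isoform on an opposing membrane. In the α and γ clusters every member has its own promoter and variable exon, which is spliced to constant exons shared by the whole cluster, whereas each β gene is a single coding exon. Individual neurons choose different combinations of promoters, and the resulting surface code is known for letting branches of one neuron recognise and avoid each other. The last members of the α and γ clusters, called C-type (Pcdhac1, Pcdhac2, Pcdhgc3, Pcdhgc4 and Pcdhgc5), are expressed more regularly across neurons than the alternate members before them. Bulk tissue gives the sum over cells, so that fewer cells of a type and less RNA per cell cannot be told apart.

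The virus carries miR-130a-3p, whose sequence is shown because its seed sets which messages it can pair with. The mature sequence, from RefSeq on GRCm38.p6 at chr2:84741116-84741137 on the minus strand, is 22 bases long, and capitals mark the seed, bases 2 to 8.

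mmu-miR-130a-3p: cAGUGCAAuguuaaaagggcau

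The row of the microRNA's own gene, Mir130a, was listed at 0 in all 10 libraries. A poly(A) library does not measure the mature microRNA, so this row does not check the labels.

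Seed matches were searched on the transcript strand as TTGCACT or TGCACTA, which overlap in TGCACT, in the longest 3′ UTR of each gene's protein-coding models. No 3′ UTR of the 13 tested α members or the 21 γ members held either match, and 2 of 20 tested β members did, against 2122 of 13275 tested genes with an annotated 3′ UTR (16.0%). All γ members carry the same constant exons, with small differences at the annotated end, and their 3′ UTRs are 1741 to 1744 bases long, so the 21 UTRs are not independent. The matching β members were Pcdhb14, with 1.41 ± 0.255 TPM in controls and 1.30 ± 0.190 TPM with miR-130a (SD, n = 5 each), and Pcdhb18, with 1.40 ± 0.130 and 1.25 ± 0.244 TPM. Neither passed the test (limma adjusted p = 0.81 and 0.70). A match is a description of the letters, not a measured binding site.

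The gene models also bear on how a single member's level can be read. In GENCODE M21 all 58 members were found on the plus strand of chromosome 18. All 22 β models have 1 exon, and the α and γ models have 4. A stretch of 2860 bases at the constant end is identical in 14 of the 15 α transcripts, all but Pcdha4b, which is 53.5% of the median α transcript length of 5341 bases. A stretch of 2116 bases towards the end is identical in all 21 γ transcripts, 44.8% of a median of 4723 bases. Reads from these stretches fit each member that carries them, so the level of a single α or γ gene depends on how the authors' quantification divided them and is uncertain. The sum over a cluster depends on this less.

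In these libraries the γ cluster gave most of the clustered protocadherin RNA, with 77.4% ± 0.839 of the summed TPM in controls and 75.1% ± 2.10 with miR-130a (SD, n = 5 each). The C-type genes Pcdhgc5, Pcdhgc3 and Pcdhgc4 were the 3 members with the highest mean TPM, at 101, 59.5 and 57.6 TPM over all 10 libraries. Pcdhac2, the C-type gene that serotonergic axons need to space themselves, came next at 17.3 TPM. The other γ members ranged from 3.74 to 16.5 TPM. Tested α members ranged from 1.14 to 17.3 TPM and tested β members from 1.03 to 7.17 TPM. Among tested members of a cluster, the level tended to be higher towards the cluster's end in α (Spearman's rho 0.63 across 13 genes) and γ (0.54 across 21), and less so in β (0.24 across 20). These coefficients are across genes that share libraries and, in α and γ, reads, and are given as a description.

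**Figure D1:**
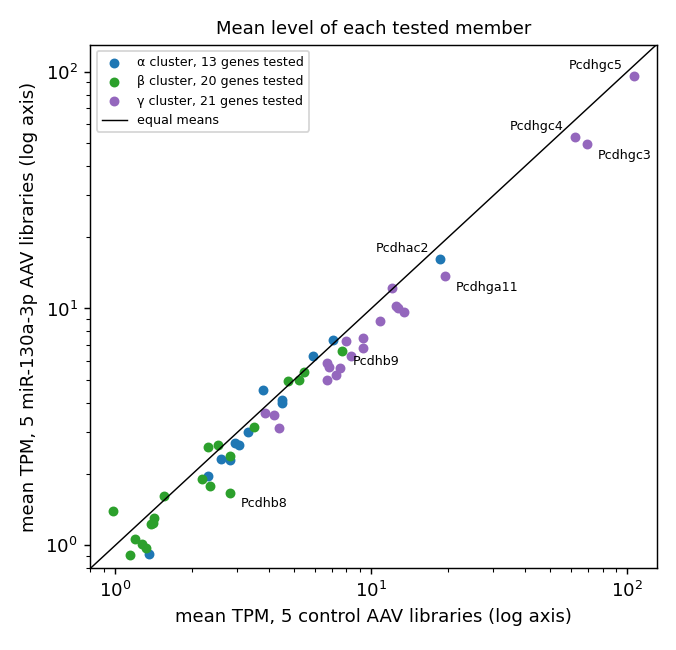
Mean TPM of each tested member in the 5 control libraries (x, log axis) against the 5 miR-130a libraries (y, log axis), with 13 α, 20 β and 21 γ genes in separate colours and the line of equal means. Pcdhgc5, Pcdhgc4 and Pcdhgc3 sit apart at the upper right, and Pcdhgc3 lies farthest below the line of the 3.

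The other 4 members were too low to be tested. Pcdhb21 lay just under the limit, at 0.898 ± 0.179 TPM in controls and 0.798 ± 0.238 TPM with miR-130a, and Pcdhb11, at a mean of 1.03 TPM over all libraries, just above it. Pcdha8 had 0.310 ± 0.159 and 0.512 ± 0.326 TPM. Pcdha4b and Pcdhb1 were each listed at 0 in 8 of 10 libraries and reached at most 0.12 and 0.04 TPM in any other.

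Control library 9 had the lowest α and β sums of the 10 libraries and the lowest γ sum of the controls. Its β sum, 45.7 TPM, was close to the 45.8 TPM of miR-130a library 17. Its γ sum, 305 TPM, was above the 297 TPM of miR-130a library 15. The check for outlying libraries given at the end flagged it in no cluster sum. Control library 9 also had the lowest summed level of the 7 neuron markers, 2825 TPM, against 3867 to 4992 TPM in the other controls and 3702 to 4477 TPM with miR-130a. Its microglial marker sum, 1882 TPM, was the highest of all libraries, and that of control library 7 was the next, at 1752 TPM. The cluster sums and counts of calls are also given without control library 9 and without control libraries 7 and 9.

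The γ sum was 391, 455, 469, 386 and 305 TPM in control libraries 3, 4, 5, 7 and 9. With miR-130a it was 335, 322, 297, 366 and 324 TPM in libraries 13, 14, 15, 17 and 18. The means were 401 ± 65.3 and 329 ± 25.1 TPM (SD, n = 5 each), a difference of −18.0%, and the groups overlapped through control library 9 alone. Without that library the control mean was 425 ± 42.6 TPM, the difference was −22.6%, and the lowest control lay above the highest miR-130a library. Without control libraries 7 and 9 the difference was −24.9%. These were the controls with the lowest γ sums, so leaving them out could only widen the difference. When libraries were rescaled by the median ratio over genes it was −10.1%, and with TPM rescaled to protein-coding genes −13.3%, and the groups overlapped under both.

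The α sum was 70.2, 65.3, 78.4, 56.5 and 43.7 TPM in the controls and 61.2, 61.7, 61.5, 53.6 and 56.1 TPM with miR-130a. The means, 62.8 ± 13.3 and 58.8 ± 3.75 TPM, differed by −6.40%, less than the spread of the controls, and all miR-130a libraries lay within the control range. Single controls moved this value, to −13.0% without control library 9, −3.56% without control library 3 and −0.23% without control library 5. The difference was −17.5% without control libraries 7 and 9, with no overlap, and 2.44% under median-ratio scaling. Control libraries 7 and 9 had the lowest α sums of the controls, so leaving them out could only widen the difference and reduce the overlap. The β sum was 48.7, 58.5, 64.5, 53.0 and 45.7 TPM in the controls and 49.7, 53.0, 46.4, 45.8 and 53.0 TPM with miR-130a. The means, 54.1 ± 7.55 and 49.6 ± 3.50 TPM, differed by −8.28%, again within the control range. The β difference was −11.7% without control library 9, −3.62% without control library 5, −13.3% without control libraries 7 and 9, and −0.05% under median-ratio scaling.

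**Figure D2:**
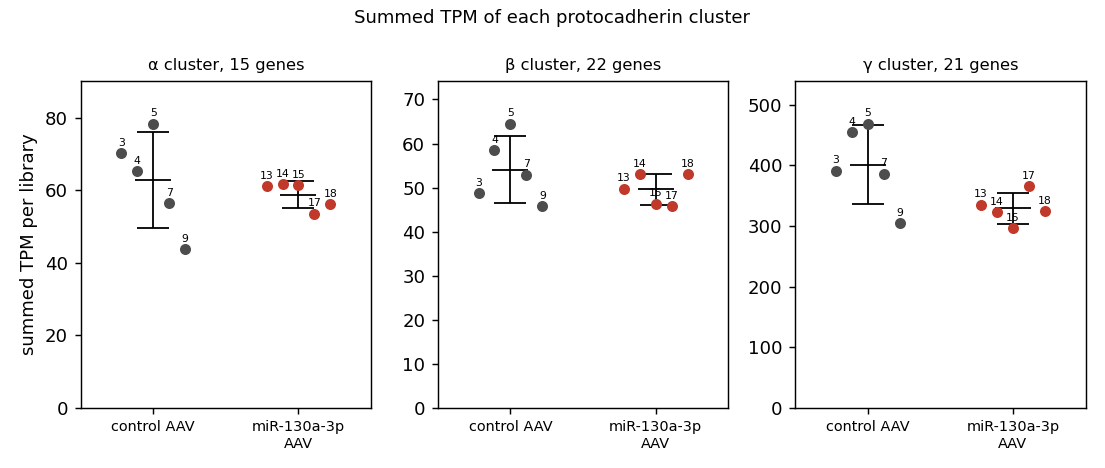
Summed TPM of the α, β and γ clusters in each library (points, numbered by library) with the mean and SD of each group of 5 (bars). In γ, 4 of 5 controls lie above every miR-130a library and control library 9 lies among them, whereas in α and β the miR-130a libraries lie within the control range.

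Gene by gene, 3 of 21 γ members fell with miR-130a (14.3%), none rose and 18 did not pass (limma on log2(TPM + 1), adjusted p below 0.05 over all 15680 genes tested). Over all genes tested 11.3% fell and 2.19% rose, so the γ share called lower is near the background. None of 13 tested α members and none of 20 tested β members passed in either direction. At an unadjusted p below 0.05, 9 γ members, 1 β member and no α member were lower, against 22% of all genes. The log2 fold change was below 0 in 20 of 21 γ, 10 of 13 α and 15 of 20 β members, and in 63.6% of all genes tested. Its median was −0.26 in γ, −0.09 in α, −0.09 in β and −0.09 over all genes. Relative to the median of all genes, γ was at −0.16, and stayed at −0.16 under median-ratio scaling, which moved that median to 0.01, and under quantile normalization, which moved it to 0.05. Single libraries moved this value, from −0.23 without control library 9 to −0.11 without miR-130a library 15. Without control libraries 7 and 9 it was −0.29. Members of α and γ share reads, so that these counts are not over independent genes.

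**Figure D3:**
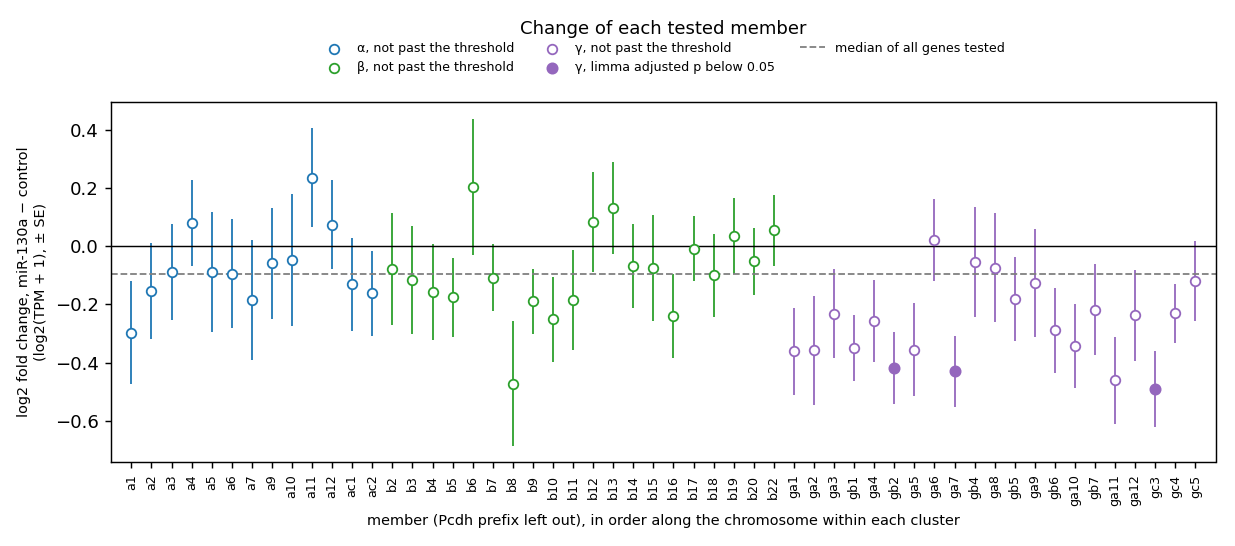
Log2 fold change (miR-130a minus control, on log2(TPM + 1), ± SE) of the 54 tested members in their order along the chromosome, with filled points for limma adjusted p below 0.05 and a dashed line at the median of all genes tested. The 3 filled points are Pcdhga7, Pcdhgb2 and Pcdhgc3, and 20 of 21 γ points lie below 0.

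Among the C-type γ genes, Pcdhgc3, whose cytoplasmic tail binds Axin1, fell, while Pcdhgc4 and Pcdhgc5 did not pass. Pcdhgc3 had 61.0, 81.5, 76.6, 67.3 and 61.2 TPM in control libraries 3, 4, 5, 7 and 9, and 44.1, 44.3, 42.8, 65.0 and 50.9 TPM in miR-130a libraries 13, 14, 15, 17 and 18. In all, 4 of 5 miR-130a libraries were below every control, and library 17 was among the controls. The means were 69.5 ± 9.19 and 49.4 ± 9.28 TPM (SD, n = 5 each), with a log2 fold change of −0.49 (SE 0.13, limma adjusted p = 0.0294). The call was lost in 9 of 20 alternative settings, including median-ratio scaling (adjusted p = 0.109) and the fits without control library 4, 5 or 7 or miR-130a library 13, 14 or 15.

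Pcdhgc4, the isoform that cortical interneurons need to survive, had 55.0, 67.2, 70.3, 62.6 and 56.5 TPM in the controls and 57.3, 52.0, 47.1, 60.1 and 48.4 TPM with miR-130a. The groups overlapped, and the log2 fold change of −0.23 did not pass (limma adjusted p = 0.162). Pcdhgc5, which binds GABA-A receptors, had 111, 117, 124, 108 and 70.7 TPM in the controls and 92.2, 102, 92.2, 102 and 91.6 TPM with miR-130a. Control library 9 was the lowest of all 10, and the other controls were all above the miR-130a libraries. The log2 fold change was −0.12 (limma adjusted p = 0.629). Without control library 9 it was −0.26 and passed (limma adjusted p = 0.0276), where 18.6% of all genes were called lower, against 11.3% with all libraries. Leaving out the lowest library, a control, could only widen the difference.

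The C-type genes did not shift as a block within the cluster. Together they made up 59.5% ± 2.02 of γ TPM in controls and 60.3% ± 1.93 with miR-130a. Pcdhgc3 made up 17.5% and 14.96%, and Pcdhgc5 26.3% ± 2.08 and 29.3% ± 1.92. The ratio of Pcdhgc3 to Pcdhgc5, which does not depend on scaling between libraries, was 0.671 ± 0.121 in controls and 0.513 ± 0.0812 with miR-130a. It overlapped between groups, with miR-130a libraries 17 and 18, at 0.635 and 0.556, above the lowest control, library 3, at 0.550. The ratio was highest in control library 9, at 0.867, and the other controls were at 0.550 to 0.697. Shares and ratios were not tested.

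The alternate γ genes form an A and a B family. Pcdhga7 had 13.3, 15.2, 14.9, 13.3 and 10.4 TPM in the controls and 11.5, 9.84, 9.38, 8.24 and 9.38 TPM with miR-130a. It overlapped between control library 9 and miR-130a library 13 only. Its mean fell from 13.4 ± 1.90 to 9.67 ± 1.19 TPM, a log2 fold change of −0.43 (SE 0.12, limma adjusted p = 0.0362). Pcdhgb2 had 7.84, 7.45, 8.17, 7.32 and 5.75 TPM in the controls and 5.0, 5.26, 4.42, 4.93 and 6.51 TPM with miR-130a. Here the overlap came from control library 9 and miR-130a library 18. It fell from 7.31 ± 0.932 to 5.22 ± 0.781 TPM, a log2 fold change of −0.42 (SE 0.12, limma adjusted p = 0.0452). Each of these calls was lost in 13 of 20 alternative settings, with adjusted p of up to 0.162 for Pcdhga7 and 0.296 for Pcdhgb2, both under quantile normalization.

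Pcdhgb1 was the 1 member in any cluster whose groups did not overlap (4.76% of γ members, against 9.46% of all genes tested with every miR-130a library lower, and 1.85% with every one higher). It had 6.12, 8.04, 7.24, 5.55 and 6.53 TPM in the controls and 5.54, 5.18, 4.87, 4.76 and 4.69 TPM with miR-130a, with only 0.01 TPM between control library 7 and miR-130a library 13. Its log2 fold change of −0.35 did not pass (limma adjusted p = 0.0618), and Pcdhga11 lay just beyond it at −0.46 (adjusted p = 0.0626). Pcdhga6 was the only γ member above 0, with 12.0 ± 2.02 and 12.2 ± 2.02 TPM (log2 fold change 0.02, adjusted p = 0.944). These 3 genes were singled out after their values were seen. By family, the A sum was 122 ± 25.7 TPM in controls and 97.2 ± 7.82 with miR-130a (−20.0%), the B sum 41.5 ± 7.14 and 33.1 ± 3.36 (−20.2%), and the C-type sum 238 ± 33.3 and 198 ± 17.3 (−16.6%), so the 3 families differed between groups by like amounts.

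**Figure D4:**
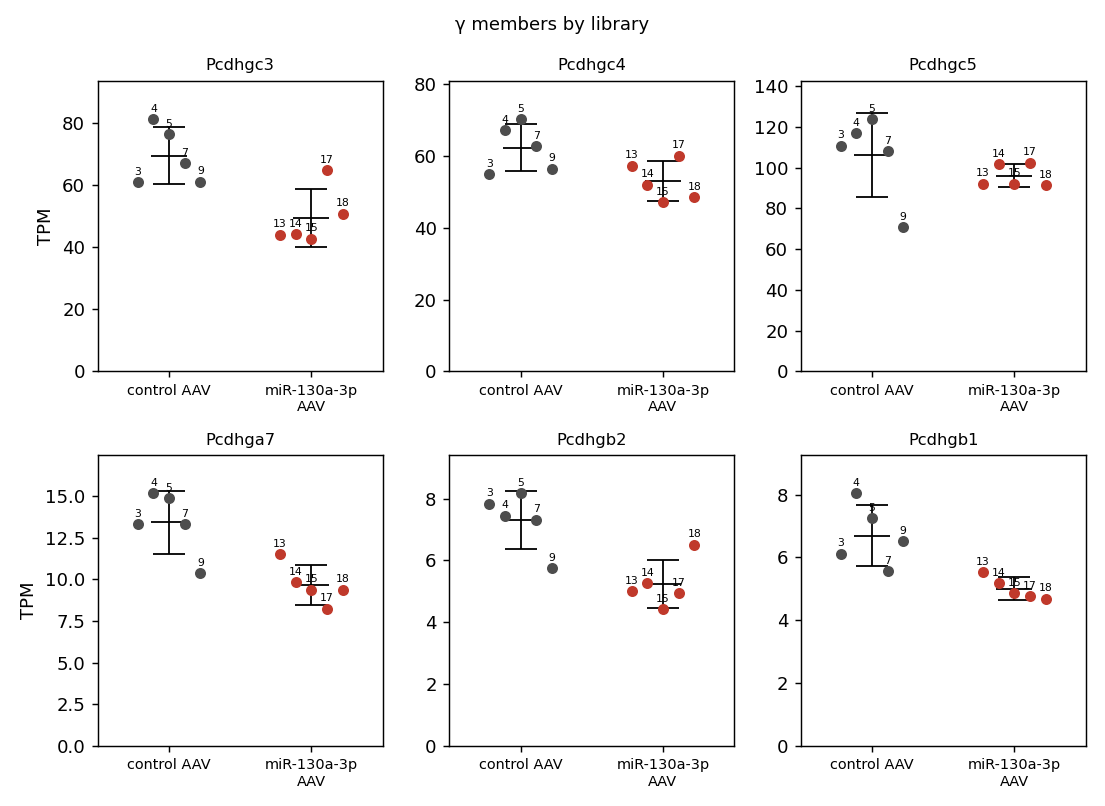
TPM of 6 γ members in each library (points, numbered by library) with mean and SD of each group of 5 (bars). Pcdhgc3, Pcdhga7 and Pcdhgb2 passed the test, Pcdhgb1 is the member whose groups do not overlap, and miR-130a library 17 lies among the controls for Pcdhgc3.

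How many γ members passed turned on single libraries of both groups. Without control library 9, 10 of 21 γ members passed as lower, while the share of all genes called lower rose from 11.3% to 18.6%. Without control libraries 7 and 9, the controls with the lowest α and γ sums, 13 γ members and Pcdhac2 passed, against 15.6% of all genes. Without control library 4, 5 or 7, or miR-130a library 14 or 15, no γ member passed, against 9.38%, 9.38%, 7.07%, 7.12% and 10% of all genes. Without control library 3 or miR-130a library 13, 17 or 18, 1 or 2 γ members passed, against 8.37%, 7.39%, 9.39% and 9.99% of all genes. Other choices lowered the count too. A filter at 0.1 TPM and protein-coding rescaling left 1 γ member, Pcdhgc3, against 6.39% and 8.04% of all genes. No filter, median-ratio scaling and quantile normalization left none, against 3.07%, 7.6% and 6.67%. No member of any cluster passed as higher in any of the 20 alternatives run.

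The γ sum was also set against the neuron markers, a ratio chosen after the values were seen. It was 96.9, 98.4, 93.9, 99.8 and 108 TPM per 1000 TPM of neuron markers in control libraries 3, 4, 5, 7 and 9. In miR-130a libraries 13, 14, 15, 17 and 18 it was 74.9, 72.1, 75.2, 98.8 and 79.3. By this measure control library 9 was the highest, and 4 of 5 miR-130a libraries lay below every control, with library 17 among the controls. The neuron markers did not move together. Snap25, the largest, was at 1305 ± 173 TPM in controls, 1640 ± 306 with miR-130a and 1129 in library 17. Gad1 and Gad2 also had higher means with miR-130a. Slc17a7, at 1201 ± 313 and 1007 ± 127 TPM, Rbfox3, Syt1 and Tubb3 had lower means. How far the ratio depends on single markers was not tested. Against astrocyte markers, Pcdhgc3 was at 82.0, 96.2, 88.8, 91.1 and 73.6 TPM per 1000 TPM in the controls and 69.1, 60.5, 58.9, 91.1 and 60.2 with miR-130a, again with library 17 among the controls. The ratio to neuron markers was 15.5 ± 1.25 and 14.3 ± 0.815 for α, and 13.5 ± 1.61 and 12.0 ± 0.696 for β.

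In the α cluster no member passed. Pcdhac2 had 21.2, 18.7, 23.3, 16.8 and 12.5 TPM in the controls and 14.7, 16.1, 18.0, 16.2 and 15.6 TPM with miR-130a. The miR-130a libraries lay inside the control range, and the log2 fold change was −0.16 (limma adjusted p = 0.516). Pcdhac1 had 3.05 ± 0.838 and 2.65 ± 0.357 TPM (−0.13, adjusted p = 0.648). The most abundant alternate members were Pcdha12, with 7.06 ± 1.74 and 7.37 ± 0.893 TPM (0.07, adjusted p = 0.799), and Pcdha4, with 5.91 ± 1.04 and 6.30 ± 1.14 TPM (0.08, adjusted p = 0.773). The member with the lowest p was Pcdha1, at 1.35 ± 0.374 and 0.918 ± 0.308 TPM (−0.30, adjusted p = 0.306). Log2 fold changes in the cluster ran from −0.30 to 0.24.

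Pcdha11, at the upper end, had 3.36, 4.47, 5.36, 3.50 and 2.24 TPM in the controls and 4.97, 4.87, 4.54, 3.93 and 4.24 TPM with miR-130a (limma adjusted p = 0.403). As a share of α TPM it was 4.78% to 6.85% in controls and 7.34% to 8.11% with miR-130a. These shares did not overlap, but the share was looked at after the values were seen, over all members, and was not tested. The C-type genes took 34.2% ± 0.608 of α TPM in controls and 31.99% ± 2.49 with miR-130a, with lower shares than any control in miR-130a libraries 13, 14 and 18.

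No β gene passed either. Pcdhb8 was the member with the lowest p (0.0478 by limma, adjusted p = 0.171). It had 1.24, 4.07, 2.47, 3.61 and 2.66 TPM in the controls and 2.02, 1.35, 1.33, 1.98 and 1.63 TPM with miR-130a. Control library 3 was the lowest of all 10, and the other controls were above every miR-130a library. Without control library 3 Pcdhb8 passed as lower (limma adjusted p = 0.0384), against 8.37% of all genes, and it passed in only 1 of 20 alternatives. Leaving out its lowest library, a control, could only widen the difference. Pcdhb10 followed, with 2.34 ± 0.540 and 1.78 ± 0.198 TPM (−0.25, adjusted p = 0.292).

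None of the 3 most abundant β genes passed. Pcdhb9 had 7.32, 7.88, 8.96, 7.06 and 7.25 TPM in the controls and 6.42, 8.26, 5.98, 6.19 and 6.35 TPM with miR-130a. Of the miR-130a libraries, 4 of 5 lay below every control, and library 14 was among the controls. The means were 7.69 ± 0.771 and 6.64 ± 0.921 TPM, −0.19 on the log2 scale (limma adjusted p = 0.296), and without library 14 the log2 fold change was −0.26 (adjusted p = 0.16). Pcdhb17 had 5.44 ± 0.741 and 5.37 ± 0.451 TPM (−0.01, adjusted p = 0.97), and Pcdhb20 had 5.22 ± 0.591 and 5.0 ± 0.570 TPM (−0.05, adjusted p = 0.819). The sign of Pcdhb17 and Pcdhb20 changed with the scaling. Members varied less between control libraries in β (median coefficient of variation 17.02%) than in γ (21.0%) and α (28.4%), and with miR-130a the medians were 14.5%, 12.7% and 17.2%.

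Genes that regulate, cut or carry signals from these proteins were read from lists drawn up for the purpose. The list of looping and silencing factors held CTCF, cohesin and its loaders, methyltransferases and other silencers. Of 18 tested, 1 fell and none rose, with 11.3% of all genes lower and 2.19% higher. That gene was Wiz, a zinc-finger protein found with CTCF and cohesin on chromatin, at 25.6 ± 4.60 TPM in controls and 17.7 ± 1.09 with miR-130a (log2 fold change −0.49, limma adjusted p = 0.0221). Ctcf itself, which anchors promoter choice, had 34.8 ± 3.68 and 29.2 ± 3.84 TPM (−0.25, adjusted p = 0.165). The list's median log2 fold change was −0.07, against −0.09 over all genes. The methyltransferase gene Dnmt3b, also listed, was too low to be tested, at a mean of 0.18 TPM. Whether each listed factor acts on these clusters was not tested.

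Of 22 genes for cleavage and signalling, 4 fell and none rose, with 11.3% of all genes lower, and the list's median was −0.14. Psen2 and Ncstn encode parts of γ-secretase, the complex that releases the cytoplasmic tails of protocadherins. Psen2 was at 16.5 ± 2.14 TPM in controls and fell to 12.0 ± 0.473 TPM (−0.42 on the log2 scale, limma adjusted p = 0.0181). Ncstn was at 46.7 ± 4.43 TPM and fell to 35.5 ± 2.39 TPM (−0.38, adjusted p = 0.0166). Aph1a and Psenen, which also encode parts of the complex, did not pass (adjusted p = 0.0502 for Aph1a, whose groups did not overlap), nor did Adam10, the sheddase that cuts first. Cyfip1, a subunit of the actin-regulating WAVE complex, fell from 35.2 ± 2.86 to 24.7 ± 1.51 TPM (−0.49, adjusted p = 0.00422). The groups did not overlap for Psen2, Ncstn or Cyfip1, as in 9.46% of all genes tested, where every miR-130a library was lower. Ncstn and Cyfip1 passed in all 20 alternatives, while Psen2 was lost in 6 and Wiz in 4.

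Of 11 tested protocadherins outside the clusters, none passed by limma in either direction, with 11.3% of all genes lower and 2.19% higher. The lowest p was that of Pcdh17, which encodes a synaptic adhesion protein, at 7.82 ± 1.2 TPM in controls and 11.4 ± 2.95 with miR-130a (log2 fold change 0.47, adjusted p = 0.0734). Pcdh17 passed as higher in 3 of 20 alternatives, with median-ratio scaling (adjusted p = 0.0154), with quantile normalization (0.0101) and without miR-130a library 17 (0.0415). In those fits 5.5%, 6.83% and 2.35% of all genes were called higher. Of 13 tested genes that flank or lie between the clusters, 1 rose and none fell, with 2.19% of all genes higher and 11.3% lower. That was Zmat2, a splicing factor gene before the α cluster, from 115 ± 6.69 to 138 ± 7.17 TPM (0.27, adjusted p = 0.0374), lost in 10 of 20 alternatives. The list's median was −0.09, the same as over all genes.

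Microglial and endothelial markers were lower with miR-130a, against a background of 11.3% of all genes tested called lower. All 5 microglial markers fell, with summed levels of 999.6 to 1882 TPM in controls and 364 to 563 TPM with miR-130a, as did all 4 endothelial markers, with 127 to 148 and 83.8 to 114 TPM. None of 7 neuronal, 5 astrocytic or 4 oligodendrocytic markers passed (limma), and the neuron sums overlapped. The median log2 fold change was −0.04 for the neuronal, −0.26 for the astrocytic and −0.21 for the oligodendrocytic markers. Astrocyte marker sums were 739 to 862 TPM in controls and 638.5 to 846 TPM with miR-130a. The 3 choroid plexus markers summed to 2.12 to 3.84 TPM in controls and 0.32 to 3.67 TPM with miR-130a. Mitochondrial transcripts took 13.04% to 16.4% of TPM in controls and 16.0% to 19.9% with miR-130a. The part of these differences in the protocadherin values was not tested.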

How the data were processed

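The authors deposited 1 table of TPM per gene for 10 libraries, which the file's own column names identify. Per the labels' protocols, total RNA from the tissue punches was poly(A)-enriched and made into stranded libraries. The tools named in the submitters' processing notes are HISAT2, RSEM, fastp and DESeq2, with build GRCm39. Their roles and versions are not given in the sources used here. TPM divides by transcript length and library total and keeps no depth, so depth is unknown and no counting interval is given.

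Values were analysed as log2(TPM + 1), a scale that understates changes of weakly expressed genes. Genes with a mean of at least 1 TPM (15680 of 78317) were compared with limma 3.58.1 (lmFit, eBayes with trend, 2-sided, Benjamini-Hochberg over all tested, threshold 0.05) in R 4.3.3, after a check on simulated data. Named were members past the threshold, the 3 highest and the 2 with the lowest p in each cluster, the C-type members, and list genes past the threshold or with the lowest p. Values of 1 list gene are not reported here. Sums, shares and medians were not tested. Gene models came from GENCODE M21 on GRCm38, another build than the files', so no member coordinates are given. Members and lists were chosen with earlier results of these data known. The labels do not say how many mice were used, so each p-value reflects only how these libraries vary, which may be technical.

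The 20 alternatives were other low-value filters (a mean of 0.1 TPM, or any value above 0), pseudocounts of 0.1 and 0.5, median-ratio, quantile and protein-coding scaling, robust or untrended variances, leaving out each library, and leaving out control libraries 7 and 9.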

Additional observations from a re-analysis of the deposited data

Results flagged for a closer look

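In 52 groups of 5 libraries, taken over the 3 cluster sums and each gene named by rule, 2 held a library far from the others, where chance flags about 1 in 20. Pcdhb9 was at 8.26 TPM in miR-130a library 14, against 5.98 to 6.42 TPM in the other 4. Pcdhb17 was at 6.17 TPM in miR-130a library 13, against 5.11 to 5.29 TPM in the others.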

How the results depend on the processing

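The number of γ members called lower, 3 as reported, was 1 with a filter at 0.1 TPM and with protein-coding rescaling, 0 with no filter, median-ratio scaling and quantile normalization, 13 without control libraries 7 and 9, and 0 to 10 with each library left out. It stayed within 1.5 times in 5 of 20 alternatives. Without control libraries 7 and 9, 1 α member was called lower and the α median log2 fold change was −0.29. One library left out gave 0 to 1 β members lower. Quantile normalization gave medians of 0.11 in α and 0.10 in β. The γ median kept its sign in all 20, from −0.37 to −0.19 with each library left out, −0.11 with quantile normalization, −0.15 with median-ratio scaling and −0.44 without control libraries 7 and 9. The α median ran from −0.20 (without control library 9) to −0.02 (without control library 5), and the β median from −0.13 to −0.03 likewise.

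Over all genes, 1767 were called lower and 343 higher (16.3% of calls higher). No filter gave 1124 and 178, and quantile normalization 1046 and 1071 (50.6% higher). Median-ratio scaling gave 862 higher (42.0% of calls), protein-coding rescaling 533 (29.7%), and each library left out 1108 to 2922 lower and 146 to 499 higher.

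Signs that changed: Pcdhb17 was at 0.0907 with median-ratio scaling, 0.199 with quantile normalization and 0.0579 with protein-coding rescaling, and −0.0595 to 0.0498 with each library left out. Pcdhb20 was at 0.0464, 0.154 and 0.0131 under those scalings, and −0.0865 to 0.0100 with each library left out. With quantile normalization Pcdhac2 was at 0.0029, Pcdhb9 at 0.0090 and Pcdhac1 at 0.0677. Pcdha12 was at −0.127 without control libraries 7 and 9, and −0.0255 to 0.172 with each library left out. Pcdha4 was at −0.0206 to 0.142 with each left out. The cause was not tested.

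No paired analysis was possible because the groups share no library number. TPM keeps no depth, so how far read number limits the low α and β members is unknown.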
